A study of Mus musculus with 11 samples.

Results

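The Skint genes are a family of butyrophilin-like genes of keratinocytes, and the 10 members Skint1 to Skint10 were taken by symbol from the 38406 gene symbols measured in mouse back skin. All 10 were listed with at least 1 read in some library. Only Skint3 reached the mean of 10 normalized counts that was required for testing, along with 13215 genes in all. The mice were C57BL/6 females aged 8 to 10 weeks, and RNA was taken from their whole back skin 24 hours after the last of 4 daily doses of 125 mg of a cream with 5% imiquimod. Imiquimod is a TLR7 agonist whose cream produces psoriasis-like inflammation in mouse skin. The 2 groups were 6 mice lacking Trex2 (Trex2-/-, knockout) and 5 wild-type mice. Trex2 encodes a DNA exonuclease made mainly by keratinocytes. Both groups were shaved and treated, and no skin without imiquimod was analysed here. The libraries are named by the replicate numbers of the labels, 7 to 12 in knockout and 2 to 6 in wild type.

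Skint proteins are membrane proteins with immunoglobulin-like domains, related to the butyrophilins. Skint1, expressed by thymic epithelium and keratinocytes, is required in mice for the development of the dendritic epidermal T cells, which carry a Vγ5Vδ1 receptor and reside among keratinocytes. The functions of the other members are less well defined, and the human genome holds only an inactive relative of Skint1.

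All members lay in 1 cluster on mouse chromosome 4, chr4:111919392-113999503 (GRCm38, GENCODE M21), which spans 2.08 Mb. In map order they were Skint8, Skint7, Skint1, Skint4, Skint3, Skint9, Skint2, Skint10, Skint6 and Skint5. Skint9, Skint10, Skint6 and Skint5 were on the minus strand and the other 6 members on the plus strand. Each member is annotated as protein-coding. Skint3 (ENSMUSG00000070868.11) extended from 112232245 to 112300468.

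The members differ in sequence at their starts, which is shown here for 3 pairs: Skint3, the most abundant member, with Skint4, and 2 pairs of minus-strand members whose reads rested largely on the same libraries. RefSeq promoter windows on GRCm38.p6, from 250 bases before to 50 bases after an annotated start, were matched by symbol for all 10 members, with 11 windows because Skint4 had a second start. In the first 4 sequences the capitals mark a run of 14 bases, AGTACTTGAGTAAT, and in the last 2 a run of 19 bases, CTAATTTGAATTATGCAGT. They are given 5′ to 3′ on the strand of the gene, at chr4:112231995-112232294 (plus strand) for Skint3, chr4:112081220-112081519 (plus) for the second start of Skint4, chr4:113286924-113287223 (minus) for Skint6, chr4:113999454-113999753 (minus) for Skint5, chr4:112433936-112434235 (minus) for Skint9 and chr4:112774812-112775111 (minus) for Skint10.
Skint3: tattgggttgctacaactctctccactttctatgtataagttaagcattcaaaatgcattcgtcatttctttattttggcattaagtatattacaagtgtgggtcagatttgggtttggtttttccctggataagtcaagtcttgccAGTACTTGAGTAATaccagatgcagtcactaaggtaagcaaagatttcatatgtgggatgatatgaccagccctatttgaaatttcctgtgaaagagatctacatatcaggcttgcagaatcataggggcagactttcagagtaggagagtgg
Skint4: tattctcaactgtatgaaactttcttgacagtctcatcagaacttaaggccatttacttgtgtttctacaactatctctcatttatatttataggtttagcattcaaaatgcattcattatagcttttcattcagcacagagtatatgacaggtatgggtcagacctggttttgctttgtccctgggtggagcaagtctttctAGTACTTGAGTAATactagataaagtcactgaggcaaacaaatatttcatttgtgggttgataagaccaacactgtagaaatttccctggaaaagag
Skint6: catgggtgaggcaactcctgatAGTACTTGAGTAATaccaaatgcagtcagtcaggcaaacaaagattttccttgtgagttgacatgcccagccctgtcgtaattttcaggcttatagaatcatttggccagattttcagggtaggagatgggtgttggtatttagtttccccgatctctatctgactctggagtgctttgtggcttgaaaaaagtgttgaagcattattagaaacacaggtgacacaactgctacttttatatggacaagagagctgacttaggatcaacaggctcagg
Skint5: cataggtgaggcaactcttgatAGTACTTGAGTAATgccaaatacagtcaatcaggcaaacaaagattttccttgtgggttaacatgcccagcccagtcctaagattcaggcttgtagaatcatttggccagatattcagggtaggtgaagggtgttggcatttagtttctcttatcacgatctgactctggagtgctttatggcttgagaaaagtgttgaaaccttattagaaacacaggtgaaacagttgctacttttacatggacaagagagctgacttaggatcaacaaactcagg
Skint9: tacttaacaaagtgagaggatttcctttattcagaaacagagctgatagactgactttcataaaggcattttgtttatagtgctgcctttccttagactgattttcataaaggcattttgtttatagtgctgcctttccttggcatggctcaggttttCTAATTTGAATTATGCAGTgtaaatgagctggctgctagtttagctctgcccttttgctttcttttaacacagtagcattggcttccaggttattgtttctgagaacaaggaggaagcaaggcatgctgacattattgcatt
Skint10: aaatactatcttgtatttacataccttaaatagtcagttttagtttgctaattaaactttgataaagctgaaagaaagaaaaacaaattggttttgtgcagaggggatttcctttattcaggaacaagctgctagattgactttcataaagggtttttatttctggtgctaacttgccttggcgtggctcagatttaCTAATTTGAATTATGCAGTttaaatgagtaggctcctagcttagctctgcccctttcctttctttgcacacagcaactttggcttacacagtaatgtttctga

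The windows of Skint5 and Skint6 were 89.7% identical. Those of Skint9 and Skint10 were 65.0% identical. That of Skint3 was 63.7% identical to the window at the second start of Skint4, and 52% identical to the window at the first. Over all 55 pairs of windows the median identity was 54.3%, with a range of 48.3% to 89.7%. The 14-base run was picked as the longest one held by windows of at least 5 members, so its presence in 5 members was fixed by the search. It was in the windows of Skint1, Skint3, Skint4 (second start only), Skint5 and Skint6. Searched on both strands, these were the 5 of all 32851 RefSeq windows (0.0152%) that held it. Because the run was chosen from the members, this share carries no test. The letters TATAAA, those of a TATA box, were on the strand of the gene in the window of 1 of 10 members, Skint1, and in 8.32% of all windows. Counting either strand, they were in windows of 7 of 10 members and in 13.6% of all windows. TGANTCA, the letters that AP-1 factors bind, was on either strand in no window of a member and in 7.81% of all windows. A match of letters is a description of the window and shows no binding.

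Trex2 itself was present at 0.794 to 3.47 normalized counts in knockout skin and 1125 to 2196 in wild-type skin, so each library carried the level of its label. Keratinocyte RNA was abundant in both groups, with Krt14, a keratin of basal keratinocytes, at 75480.4 ± 35107 normalized counts in knockout skin (SD, n = 6) and 41338 ± 18163 in wild-type skin (SD, n = 5). Knockout libraries held 3125366 to 15557862 counted reads and wild-type libraries 1208896 to 5853454 (exact permutation test, two-sided, p = 0.026). A normalized count is a read count divided by a size factor for the library. At these depths 3 reads, taken as the limit of detection, were worth 1.04 to 13.5 normalized counts. Intervals and limits from reads cover counting error only. All knockout mice are compared with all wild-type mice, and the labels give no litter, batch or sequencing date.

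Skint3 was the main Skint transcript of this skin. It gave 833 of the 1072 family reads in knockout libraries (77.7%) and 129 of 216 in wild-type libraries (59.7%). Per length, in RPKM, which are reads scaled by annotated exon length and by the counted reads of the library, its level averaged 2.63 ± 2.49 (SD, n = 11), and it was the highest member in 11 of 11 libraries, with a range of 0.311 to 7.26 RPKM. In wild-type replicate 5 it had 7 reads, as many as Skint4, and ranked first through its shorter exon length of 3843 bases, against 4369 for Skint4. Skint9 followed at 0.364 ± 0.723 RPKM. Skint4 averaged 0.233 ± 0.202, Skint10 0.173 ± 0.258, Skint1 0.172 ± 0.222 and Skint8 0.109 ± 0.0786 RPKM. The lowest were Skint6 at 0.0715 ± 0.127, Skint5 at 0.0472 ± 0.0942, Skint2 at 0.0327 ± 0.0596 and Skint7 at 0.0153 ± 0.0345 RPKM. No neighbours in this order differed in their means by more than the larger of their SDs, Skint3 and Skint9 included, although Skint3 was the highest in each library.

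The level of Skint3 varied more within each genotype than between them. In knockout replicates 7 to 12 it was 34.7, 43.0, 139.7, 41.8, 18.8 and 150.6 normalized counts, and in wild-type replicates 2 to 6 it was 19.96, 22.6, 107, 6.35 and 15.7. Knockout replicates 9 and 12 and wild-type replicate 4 were far above the rest of their groups, and the groups overlapped. The mean was 71.4 ± 57.9 normalized counts in knockout skin (SD, n = 6) and 34.3 ± 41.0 in wild-type skin (SD, n = 5). On the log2(normalized count + 1) scale the difference was 1.26 (SE 0.64), with an unadjusted p of 0.0707 and a limma adjusted p of 0.241, so Skint3 did not pass the test. By this test 2 of 13215 genes passed, which is 0.0151%, and 24.4% had an unadjusted p under 0.05. The median log2 fold change of all tested genes was 0.0081.

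A few libraries set the averages of Skint3. Without wild-type replicate 4 the wild-type mean was 16.1 ± 7.11 normalized counts (SD, n = 4), and the log2 fold change was 1.81 (limma adjusted p = 0.0621), in a fit where 5.6% of tested genes passed. Without knockout replicates 9 and 12 the knockout mean was 34.6 ± 11.2 (SD, n = 4), and the log2 fold change was 0.56 (limma adjusted p = 0.689). In none of these fits did Skint3 pass the threshold.

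**Figure D1:**
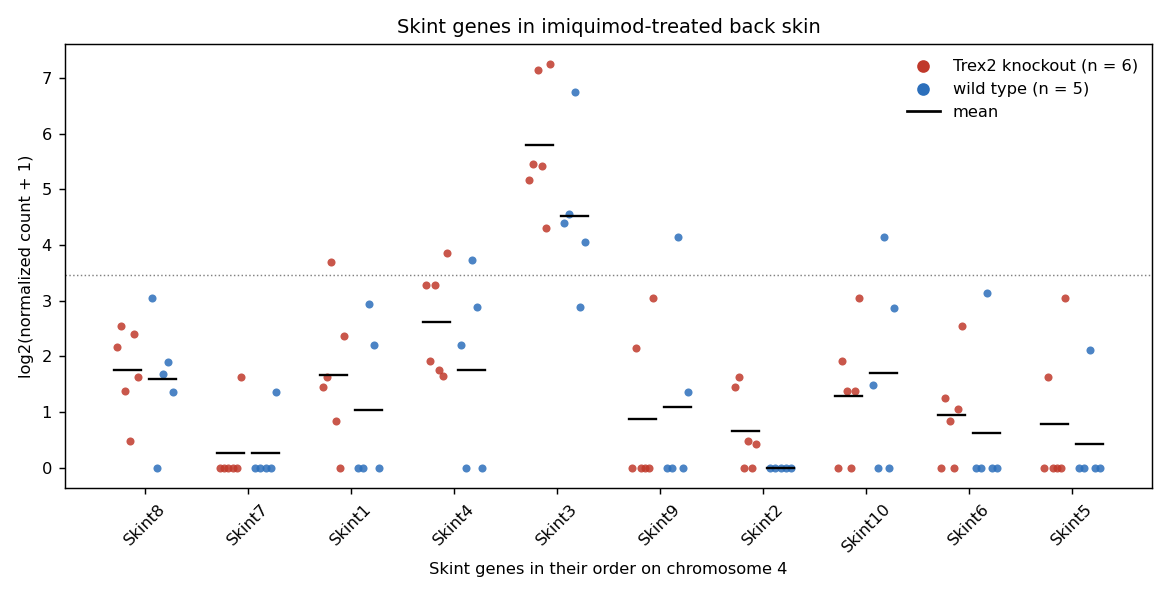
Level of each Skint gene in each library, as log2(normalized count + 1), with knockout points left of wild-type points, bars at the group means of the log2 values and a dotted line at the 10 normalized counts needed for testing. By its group means Skint3 lies above the other members, with a tie with Skint4 in wild-type replicate 5, and the points of both genotypes overlap for every member.

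Skint1, the member required for epidermal T cell development, was rare in this skin. It averaged 3.45 ± 4.38 normalized counts in knockout skin (SD, n = 6) and 2.06 ± 3.02 in wild-type skin (SD, n = 5), from 33 and 10 reads. Its highest value was 11.9 in knockout replicate 9, against a highest wild-type value of 6.67 in replicate 4. No read of Skint1 was found in 1 of 6 knockout and 3 of 5 wild-type libraries. Those are counts near the limit of detection and do not show that it was absent.

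Skint4 and Skint8 were the members, after Skint3, found in the most libraries. Skint4 had a read in 6 of 6 knockout and 3 of 5 wild-type libraries, with 6.37 ± 4.67 normalized counts in knockout skin (SD, n = 6) and 4.44 ± 5.11 in wild-type skin (SD, n = 5). Skint8 had a read in 6 of 6 knockout and 4 of 5 wild-type libraries, and its means were 2.78 ± 1.71 in knockout and 2.75 ± 2.72 in wild-type skin. The means of Skint8 differed by far less than its SD in either group. Skint7, the neighbour of Skint8, had 6 reads in knockout replicate 12 and 1 read in wild-type replicate 6, and no read elsewhere. Skint7 and Skint8 also share transcript sequence, with 3.49% and 2.95% of their 100-base words found in the other, so a small part of their reads cannot be assigned by sequence. At 50 bases, 8.11% of the words of Skint8, 7.63% of those of Skint7, 5.09% of those of Skint6 and 3.97% of those of Skint5 were shared with another gene, against 0.495% for Skint3.

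Skint2 had 6 reads in 4 knockout libraries and 0 reads in wild type, of 55807351 and 18576535 counted reads. With 75.0% of all counted reads in knockout libraries and 3 reads allowed by a count of 0, no fold is given. In a limma fit without the minimum on low values, which tested 22225 genes, Skint2 had the lowest p of the members (unadjusted p = 0.0431, limma adjusted p = 0.272). In that fit 0 of 10 members passed the adjusted threshold, where 0.009% of genes were called. An unadjusted p under 0.05 was found for 1 of 10 members and for 3848 of all 22225 genes. The median log2 fold change of the 10 members was 0.34 there, against 0.0434 over all genes of that fit, and 0.087 in DESeq2, against −0.11 over all genes there. Both medians include Skint2, whose fitted value depends on the prior or added count. On recovered reads 0 members passed in edgeR (1 of 10 tested, 0.0303% of genes called) or in DESeq2 (5.07% of genes called), where Skint3 had unadjusted p of 0.17 and 0.179 and adjusted p of 0.388 and 0.398. DESeq2 gave no adjusted p for the other 9 members.

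For all 10 members the ranges of the groups overlapped. The groups did not overlap for 2.32% of all tested genes. Summed over the family, the level was 92.0 ± 71.5 normalized counts in knockout skin (SD, n = 6) and 54.7 ± 66.0 in wild-type skin (SD, n = 5). Without wild-type replicate 4 the wild-type sum was 25.2 ± 5.85 (SD, n = 4). The sum of the 9 members other than Skint3 was 20.6 ± 15.8 in knockout skin and 20.4 ± 25.8 in wild-type skin. Without wild-type replicate 4 the wild-type sum of these 9 was 9.10 ± 6.12 (SD, n = 4). Members with a read numbered 5 to 10 per knockout library and 1 to 8 per wild-type library. After each library was thinned to 1208896 reads, the depth of the shallowest, those numbers were 1 to 6 in knockout and 1 to 7 in wild type, and Skint3 had 4 to 37 reads in knockout and 2 to 20 in wild type.

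The minus-strand members, Skint9, Skint10, Skint6 and Skint5, were unevenly spread over the libraries in both genotypes. Of their 145 reads, 77 were in knockout replicate 12 and 40 in wild-type replicate 4. These were 80.7% of their reads, while both libraries held 27.2% of all counted reads. Part of this was shared by plus-strand members, since Skint3 had 434 and 96 of its 962 reads there. For the other plus-strand members the share in both libraries was 85.7% for Skint7, on 7 reads, 56.2% for Skint4 and 41.9% for Skint1. It was 22.2% for Skint8 and 16.7% for Skint2. Skint9 had 21 reads in knockout replicate 12 and 15 in wild-type replicate 4, with 6 in all other libraries. Skint10 had the same counts, 21 and 15, in these libraries, and Skint5 had 21 and 3.

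Knockout replicate 9 had the second highest Skint3 level but few minus-strand reads. There the minus-strand members gave 3 of 207 family reads, 1.45% with a 95% Wilson interval of 0.494% to 4.17%. In knockout replicate 12 they gave 13.4% (10.8% to 16.4%) of 575 family reads, and in wild-type replicate 4 they gave 25.8% (19.6% to 33.2%) of 155. Knockout replicate 10 had 0 of 116, which by the limit of 3 reads allows a share of up to 2.59%, with a Wilson upper bound of 3.21%. Knockout replicate 8 had 15.1% of 93 family reads, and wild-type replicate 6 had 29.4% of 17. These shares describe the libraries and carry no test, since the members were grouped after the values were seen.

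Summed by group, the minus-strand share of family reads was 9.24% in knockout (99 of 1072) and 21.3% in wild type (46 of 216). Without knockout replicate 12 the knockout share was 4.43%, and without wild-type replicate 4 the wild-type share was 9.84%. In normalized counts, Skint9 averaged 1.79 ± 3.03 in knockout and 3.65 ± 7.32 in wild-type skin, and Skint10 2.21 ± 2.71 and 4.95 ± 7.04. Skint6 averaged 1.35 ± 1.81 in knockout and 1.56 ± 3.48 in wild-type skin, and Skint5 1.56 ± 2.93 and 0.667 ± 1.49 (SD, n = 6 knockout and 5 wild type throughout).

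**Figure D2:**
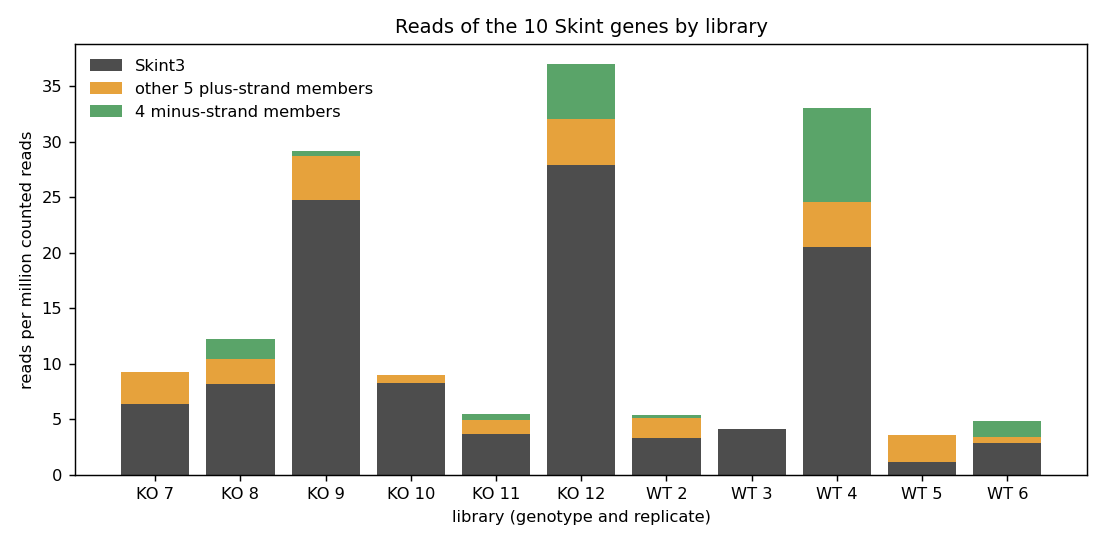
Reads of the family, scaled to the counted reads of each library, divided among Skint3, the other plus-strand members and the minus-strand members, with knockout libraries before wild-type libraries. Minus-strand members make up 13.4% in knockout replicate 12 and 25.8% in wild-type replicate 4 but 1.45% in knockout replicate 9.

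Genes around the cluster were compared to see whether the region moved as a whole. Slc5a9, a sodium-dependent sugar transporter gene just before Skint8, had 19.0 ± 18.8 normalized counts in knockout skin (SD, n = 6) and 6.38 ± 11.4 in wild-type skin (SD, n = 5). This is a log2 fold change of 1.97 (SE 0.81, limma adjusted p = 0.166). Slc5a9 had 28 reads in wild type and reached the limit of 3 reads in 1 of 5 wild-type libraries. The size of the fold therefore rests on wild-type values near the limit of detection. Its highest values were again in knockout replicates 9 and 12 and in wild-type replicate 4. With the group means removed, its Pearson correlation with Skint3 over the 11 libraries was 0.82. That was rank 302 of 13214 genes, of which 368 had r of at least 0.8, so it was not particular to this neighbour. The other tested neighbours were Bend5, Spata6, Trabd2b and Cmpk1, with log2 fold changes of −0.39, −0.23, −0.073 and 0.068, and none passed. Skint11, which follows the members in the cluster and was not among them, had 3.54 ± 4.28 normalized counts in knockout and 2.89 ± 6.46 in wild-type skin. All 13 of its wild-type reads were in replicate 4.

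**Figure D3:**
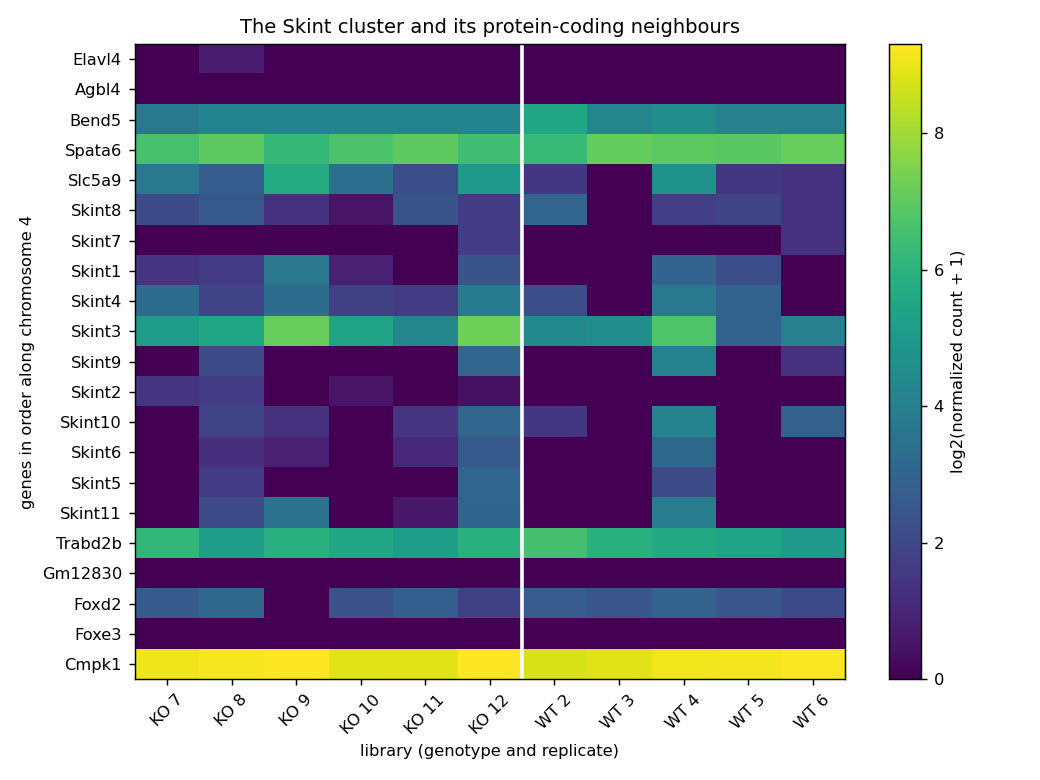
The Skint cluster and its neighbours in map order, down the page, by library across it, with colour giving log2(normalized count + 1). Skint3 is the brightest row of the family, and knockout replicates 9 and 12 and wild-type replicate 4 are its brightest libraries, as they are for Slc5a9.

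Skint3 varied together with the marker lists of spinous, granular and basal keratinocytes and of the hair follicle. For each marker list a score was taken as the mean of log2(normalized count + 1) over its tested genes, after subtracting from each gene its average level in the 11 libraries. Skint3 correlated with the spinous keratinocyte score, which includes Krt1 and Krt10, keratins of suprabasal cells, at Pearson r = 0.95 (permutation test, adjusted p = 1.4e-04) and Spearman rho = 0.91 (adjusted p = 0.000933). The granular score, with the cornified envelope genes Lor, Flg and Ivl, gave r = 0.92 (permutation test, adjusted p = 0.000373) and rho = 0.90 (adjusted p = 0.000933). The basal score gave r = 0.86 (permutation test, adjusted p = 0.000665) and rho = 0.83 (adjusted p = 0.00476), and the hair follicle score r = 0.90 (adjusted p = 0.000373) and rho = 0.90 (adjusted p = 0.000933). These are 4 of 7 relations computed, over which the p-values, two-sided, were adjusted. Leaving out the 2 libraries farthest from the median score, r was 0.91 for spinous, 0.98 for granular, 0.77 for basal and 0.78 for hair follicle genes. Within the hair follicle list Krt75, a follicle keratin, went against the score, with r = −0.46 to Skint3 and −0.75 once the group means were removed. The other tested genes of that list had positive r.

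Within the 6 knockout libraries alone, Skint3 followed the granular score at r = 0.99 (exact permutation test, p = 0.00278, the smallest that 6 libraries allow) with rho = 1.0 (exact permutation test, p = 0.00278). The spinous score gave r = 0.98 (exact permutation test, p = 0.0306) but rho = 0.77 (exact permutation test, p = 0.103), and the hair follicle score r = 0.97 (exact p = 0.0167) and rho = 0.83 (exact p = 0.0583). The basal score gave r = 0.76 (exact permutation test, p = 0.0778) and rho = 0.60 (exact p = 0.242). For the 5 wild-type libraries no separate correlation is given. Skint3 against the log10 of depth gave r = 0.39 and rho = 0.40 over the 11 libraries.

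**Figure D4:**
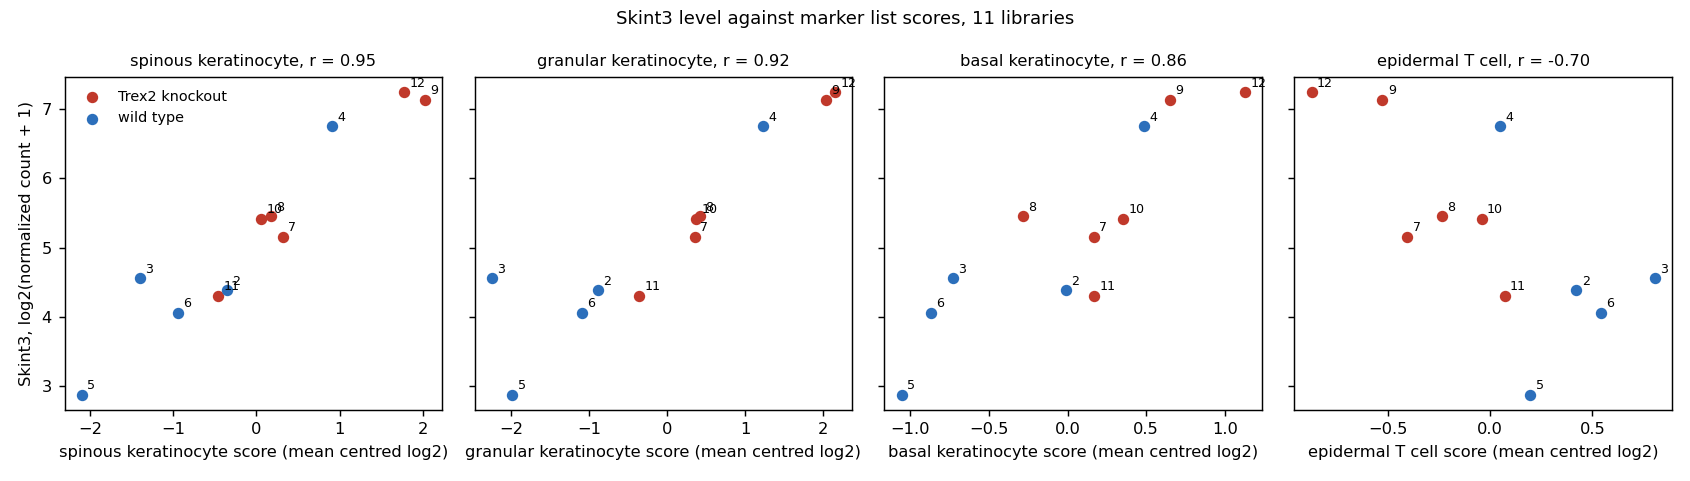
Skint3 level, as log2(normalized count + 1), against the marker scores of each library, numbered by replicate, with knockout and wild type in separate colours. Libraries with high spinous scores (r = 0.95) and low scores of the T cell list (r = −0.70) had high Skint3.

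The keratinocyte marker lists lay on the same side as Skint3 between the genotypes, without any gene passing the test. All 10 of 10 tested basal genes, 10 of 10 spinous genes and 10 of 10 granular genes had positive log2 fold changes, with medians of 0.82, 1.20 and 1.72, beside 0.0081 over all tested genes. Trp63, a transcription factor of basal cells, had 780 ± 349 normalized counts in knockout and 384 ± 152 in wild-type skin, a log2 fold change of 0.99 (SE 0.28, limma adjusted p = 0.108). Ivl, a cornified envelope precursor, had 722 ± 313 in knockout and 240 ± 102 in wild-type skin (log2 fold change 1.57, SE 0.31, limma adjusted p = 0.108). Krt10 spread as Skint3 did, with 6773 and 3319 normalized counts in knockout replicates 9 and 12 and 212 to 840 in the other knockout libraries. In wild type, Krt10 had 3025 in replicate 4 and 29.0 to 176 in the other libraries.

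Summed basal markers were 60289.6 to 182038 normalized counts in knockout libraries and 38519 to 95648 in wild-type libraries. Summed spinous markers were 17043 to 80228 in knockout and 13285 to 36341 in wild type, and summed granular markers 6308 to 22436 in knockout and 3935 to 11927 in wild type. With the basal score as a covariate the log2 fold change of Skint3 was −0.24 (SE 0.49, limma adjusted p = 0.966), and with the spinous score, a covariate chosen after the data were seen, it was −0.36 (SE 0.31, limma adjusted p = 0.749). In whole skin, fewer cells of a type and less RNA per cell cannot be told apart.

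Over 13214 tested genes, those closest to Skint3 once the group means were removed were Otub2, a deubiquitinase, and Map2, a microtubule-associated protein, with Pearson r of 0.97 and 0.96 over 11 libraries. Gsdmc, a gasdermin, Elmod1 and Fam57a followed at r = 0.96 each. Gsdmc had 62.2 to 568 normalized counts in knockout skin, median 150.4, and 6.35 to 242 in wild-type skin, median 45.5. In all, 81 genes had r of at least 0.9, among them Krt1 at 0.94 (rank 22), Lor at 0.93 (rank 33), Krt10 at 0.92 (rank 39) and Dsc1 at 0.92 (rank 52). At the other end were Tmem171 and Car2, a carbonic anhydrase, at r = −0.97, Slc6a12 at −0.95, and 8430427H17Rik and Cxcl9, a T cell chemokine, at −0.92. These correlations describe libraries that differ in depth and in cell makeup, and carry no test.

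The T cells whose development requires Skint1 could hardly be followed by their own receptor in these libraries, where its genes had few reads or none. Tcrg-V5, the Vγ5 segment of epidermal T cells in the nomenclature of these files, was at 0 in all 11 libraries. Trdv4, the Vδ1 segment, had 12 reads in knockout and 7 in wild-type libraries. Tcrg-C1, a constant segment of the γ chain, had 7 and 14 reads. Both were below the minimum for testing. Of 17 genes of the epidermal T cell list, 4 were abundant enough to be tested, Fcer1g, Il2rb, Cd7 and Amica1, all of which other blood cells also express. Their log2 fold changes were negative in 4 of 4, from −0.82 to −0.63, and 0 of 4 passed (limma adjusted p from 0.108 to 0.203; 4 of 4 had an unadjusted p under 0.05, as did 24.4% of all tested genes). The summed level of the list was 1089 to 3106 normalized counts in knockout libraries and 2790 to 4048 in wild-type libraries, most of it Fcer1g.

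Of the T cell receptor genes, Trbc2, a constant segment of the αβ receptor, was abundant enough to be tested. It had 33.2 to 101 normalized counts in knockout skin, median 52.0, and 56.3, 0, 48.9, 39.9 and 40.8 in wild-type replicates 2 to 6, and the groups overlapped (log2 fold change 1.34, SE 0.85, limma adjusted p = 0.338). Cd3d, a subunit of the receptor complex chosen after its values were seen, had 1.67 ± 0.742 normalized counts in knockout skin (SD, n = 6) and 6.25 ± 3.04 in wild-type skin (SD, n = 5), from 18 and 22 reads, and was below the minimum for testing. Other subunits below the minimum, Cd3e, Cd3g and Cd247, averaged 3.12, 3.09 and 4.59 in knockout skin. In wild-type skin they averaged 7.11, 7.12 and 7.37, and the groups overlapped for each of them. The score of the 4 tested epidermal T cell genes was related to Skint3 at r = −0.70 (permutation test, adjusted p = 0.0234) and rho = −0.78 (adjusted p = 0.00888). It gave r = −0.65 without the 2 farthest libraries and −0.60 with the group means removed. Within knockout r was −0.87 (exact permutation test, p = 0.025) and rho −0.83 (exact permutation test, p = 0.0583). What part blood cells play in it was not tested.

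Other ligands that keratinocytes present to epidermal T cells were described beside Skint3. Of 9 tested, 6 had positive and 3 negative log2 fold changes, with a median of 0.15, and 0 passed in limma while 4 had an unadjusted p under 0.05, where 24.4% of all tested genes did. H60c, a ligand of the receptor NKG2D, had 13.4 to 124 normalized counts in knockout, median 32.9, and 0, 1.81, 12.6, 33.6 and 48.9 in wild-type skin (log2 fold change 2.06, SE 0.92, limma adjusted p = 0.191). Cxadr, a ligand of the costimulatory receptor encoded by Amica1, had 284 ± 125 in knockout and 143 ± 69.6 in wild-type skin (log2 fold change 1.01, SE 0.33, limma adjusted p = 0.117). Plxnb2, the receptor of a semaphorin on epidermal T cells, had a log2 fold change of 0.36 (limma adjusted p = 0.188). Other tested ligands of NKG2D went both ways, with log2 fold changes of −0.70 for Raet1e and 0.31 for Ulbp1 (limma adjusted p = 0.321 and 0.648). Cd1d1, also of this list, had a log2 fold change of −0.53 (SE 0.24, limma adjusted p = 0.192). The score of these ligands gave r = 0.57 (permutation test, adjusted p = 0.0671) and rho = 0.65 (adjusted p = 0.0396) with Skint3, r = 0.77 without the 2 farthest libraries and r = 0.46 with the group means removed. Within knockout r was 0.90 (exact permutation test, p = 0.0333) and rho 0.77 (exact permutation test, p = 0.103). The Langerhans cell score, the last of the 7 relations, gave r = 0.30 (permutation test, adjusted p = 0.37) and rho = 0.24 (adjusted p = 0.482).

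The listed relatives of the Skint genes were at low levels. Of 11 genes, Skint11 and genes of the butyrophilin family, only Btnl2 and Btnl9 could be tested. Their means over all libraries, 11.0 and 14.4 normalized counts, were above those of every member but Skint3. They had log2 fold changes of −0.18 and −0.042 (limma adjusted p = 0.772 and 0.942). Btnl1 and Btnl4, intestinal members known from the gut epithelium, were at 0 reads in all libraries. Of the B7 family of T cell costimulators and inhibitors, which shares ancestry with butyrophilins, 7 genes were tested, 6 with negative log2 fold changes, with a median of −0.64. The 2 of lowest p were 4632428N05Rik (log2 fold change −0.64, SE 0.19, limma adjusted p = 0.109) and Cd86, a costimulator on antigen-presenting cells (log2 fold change −0.81, SE 0.28, limma adjusted p = 0.125). Over all related lists 0 of 103 tested genes passed in limma, and 49 (47.6%) had an unadjusted p under 0.05, where 24.4% of all tested genes did.

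Among the markers of other cells, hair follicle genes were positive in 7 of 7 (median log2 fold change 0.82), melanocyte genes in 3 of 3 (0.58), sebaceous gland genes in 4 of 6 (0.73) and Langerhans cell genes in 2 of 3 (0.61). Neutrophil genes were negative in 6 of 6 (median −1.20), endothelial genes in 5 of 5 (−0.50), fibroblast genes in 6 of 6 (−0.30), skeletal muscle genes in 5 of 5 (−0.31) and adipocyte genes in 4 of 4 (−0.22). The αβ T cell list had 2 tested genes, both positive (median 0.99), and the list of IL-17-producing γδ T cells had 4, with 2 in each direction (median −0.093). None of these genes passed the limma threshold.

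**Figure D5:**
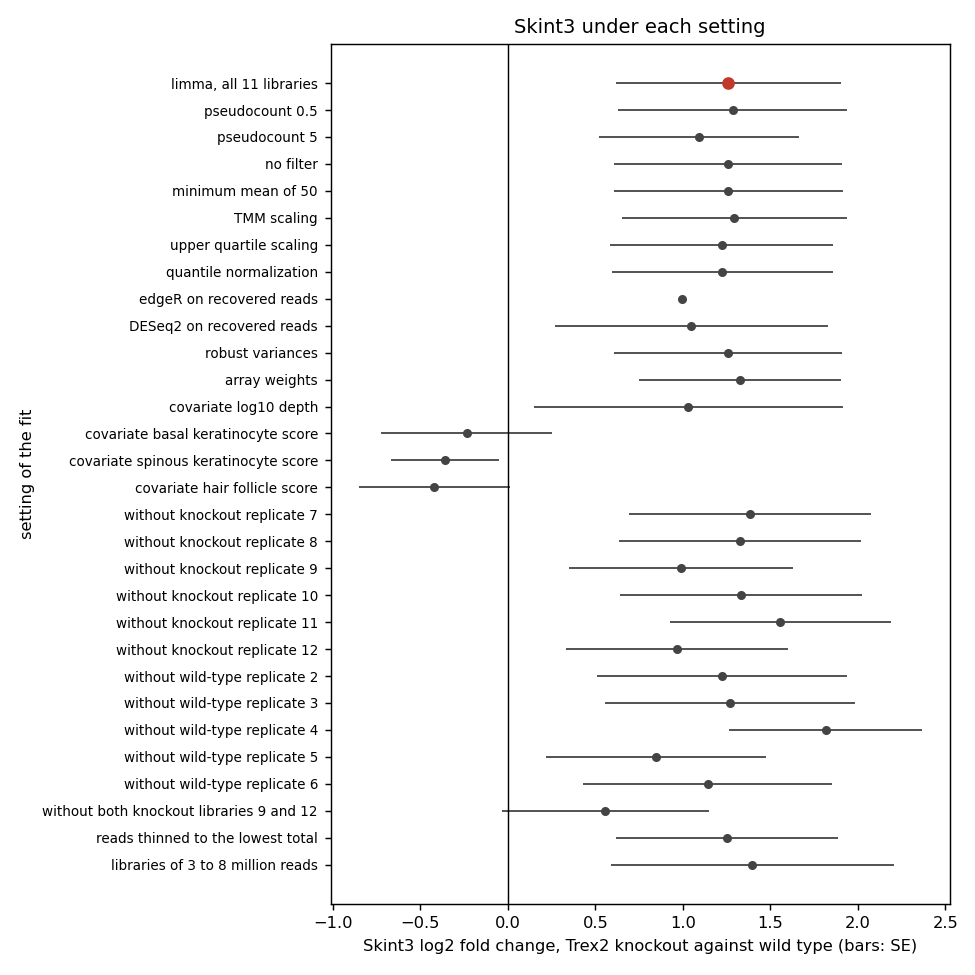
Log2 fold change of Skint3, knockout relative to wild type, under each way of processing the data, with bars of 1 SE (edgeR gives none). The value is 1.26 in the limma fit of all 11 libraries and falls below 0 with a keratinocyte or hair follicle score as a covariate.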

How the data were processed

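The deposited table gives a signal per gene and library, a count that the authors divided by a size factor. The tools were TopHat2 2.0.8, featureCounts 1.4.6 and DESeq2 1.8.1 with the build GRCm38, per the submitters' processing notes. The strand setting and the annotation were not given in the sources used here. Of the members, Skint6 overlaps the exons of an antisense gene, by 63 bases. Dividing each library by its smallest step gave whole reads for 100% of values (within 0.01). Replicates differed by more than sampling noise, with a chi-square of at least 4.74 times its degrees of freedom. The labels do not say which samples, if any, share a litter, so p-values measure the spread between these samples.

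The test was limma 3.58.1 in R 4.3.3 on log2(normalized count + 1), with a mean of at least 10 and a Benjamini-Hochberg adjusted p threshold of 0.05 over all genes. This scale understates the change of low genes. edgeR 4.0.16 and DESeq2 1.42.0 on recovered reads were alternatives. Tested on counts simulated for this comparison and its 13215 genes, limma found 38% of the genes given a log2 fold of 1 and 91% of those given 2. The simulation gave all genes the same dispersion, lower than the spread of Skint3, whose within-group SD was 1.28 on the log2 scale. These shares therefore do not apply to Skint3 or to other genes that varied as much. Correlations used 100000 permutations (exact for 6 libraries, scipy 1.17.1). RPKM used exon lengths of GENCODE M21.

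The members and lists were chosen with earlier results of these data known. Named genes are the members, Trex2, 5 protein-coding neighbours on each side, the tested genes of lowest p in each list and markers at 0, and the 5 genes most and least like Skint3. Krt1, Krt10, Lor, Flg, H60c, Raet1e, Ulbp1, Cd1d1, Krt14, Tcrg-C1, Trdv4, Cd3d, Cd3e, Cd3g, Cd247 and Skint11 were named after their values were seen.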

Additional observations from a re-analysis of the deposited data

Results flagged for a closer look

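Each member was looked at in each genotype for a library far from the others of its group, in 20 groups. The rule used the gap to the next library as a share of the range. Where all other libraries of a group are at 0, any read is flagged, so no rate of chance flags is given. This was so for Skint5 and Skint6 in wild type and for Skint7 in both genotypes. Of the values, 9 stood apart. Wild-type replicate 4 was the highest of its group for Skint3 at 107 normalized counts, against 22.6 in the next library, for Skint9 at 16.7, for Skint6 at 7.78 and for Skint5 at 3.34, the last on 3 reads. Knockout replicate 12 was the highest of its group for Skint5 at 7.29, for Skint6 at 4.86 and for Skint7 at 2.08 normalized counts, on 21, 14 and 6 reads. Knockout replicate 9 was the highest for Skint1 at 11.9, on 15 reads, against 4.16 in the next library. Wild-type replicate 6 held the only wild-type read of Skint7, 1.57 normalized counts.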

How the results depend on the processing

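Under all 29 alternatives 0 members passed the threshold. The log2 fold change of Skint3 was positive in 26 of 29, with 0.85 to 1.81 when each library was left out in turn (adjusted p 0.0621 to 0.457, the lowest without wild-type replicate 4). Its sign changed with a covariate, to −0.24 (SE 0.49) for the basal keratinocyte score. For 2 covariates chosen after the data were seen, it was −0.36 (SE 0.31) for the spinous and −0.42 (SE 0.43) for the hair follicle score. With limma adjusted p of 0.966, 0.749 and 0.938, these values do not show a lower level in knockout. The median over tested members, which is Skint3 alone in these fits, moved likewise to −0.24, −0.36 and −0.42; over all 10 members it was 0.34 without the filter and 0.087 in DESeq2. With log10 depth as a covariate Skint3 had 1.03 (adjusted p 0.892), with libraries of 3000000 to 8000000 reads 1.397, in edgeR 0.99 and in DESeq2 1.05. Genes of related lists past the threshold numbered 0 of 103 in the limma fit of all 11 libraries. In DESeq2 on recovered reads 12 of 153 with a fold change passed (7 higher and 5 lower in knockout). Over all genes with an adjusted p there, 603 of 11884 (5.07%) passed. When each library was left out in limma, 0 to 18 of 103 passed. The 18 (14 higher, 4 lower) were without wild-type replicate 4, where 740 of all 13215 tested genes (5.6%) passed. Depth differed between the genotypes and limits the 9 rarer members, which rest on 326 reads. No paired analysis was possible because the groups share no replicate number.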
